A study of Arabidopsis thaliana with 5 samples.

Results

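The class B heat shock factors of Arabidopsis thaliana are 5 genes, HSFB1 (AT4G36990), HSFB2A (AT5G62020), HSFB2B (AT4G11660), HSFB3 (AT2G41690) and HSFB4 (AT1G46264), the last of which is SCHIZORIZA. They were taken by locus out of 27444 protein-coding genes, and every deposited region of the root transcription factors BLUEJAY (BLJ) and JACKDAW (JKD) that lay within 3000 bp of one of them was collected. This gave 12 of 24229 BLJ regions and 11 of 21985 JKD regions. The regions come from chromatin immunoprecipitation sequencing of whole roots of Columbia plants, with an anti-GFP antibody that also recovers yellow fluorescent protein. The libraries were 2 from plants carrying BLJ fused to yellow fluorescent protein, a protein labelled as expressed in ground tissue, 2 from plants carrying the JKD fusion, labelled as expressed in ground tissue and the stem cell organizer (QC), and 1 from wild-type plants, in which no tagged protein is made. The promoters that drive the fusions, and whether the plants keep their own copies of BLJ and JKD, are not stated in the labels. All plants grew on plates with 1% sucrose at 22 °C under 16 h of light a day, with no further treatment.

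Heat shock factors bind DNA as trimers at repeated short elements upstream of genes for chaperones. Those of class A activate transcription, whereas those of class B lack the activation domain, and most carry a short repression motif and are known as repressors or co-regulators. HSFB1, also called TBF1, damps the heat response together with HSFB2B and takes part in the switch between growth and defence. SCHIZORIZA stands apart in the family as a developmental regulator. It acts in the root stem cell niche, where it separates the fates of ground tissue, epidermis and root cap, in the tissue in which BLJ and JKD are expressed.

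For each factor 1 list of regions was called on both replicates together. The values of a region are therefore 2 densities, the first-listed and the second-listed, and an irreproducible discovery rate (IDR). A low IDR marks a region as reproducible between the replicates. It does not by itself mean that both densities rank alike. The order of the replicates in the density cell is not given, and neither is the normalization of the densities. A region's score is the mean of the log2 of its densities, and its percentile is the share of its own list that scored no higher. Densities were therefore not compared between lists. Median densities stood at 1.60 (first-listed) and 1.38 (second-listed) for BLJ regions, against 1.09 and 1.49 for JKD regions. How deeply each library was read is unknown, and values of the wild-type library were not analysed here, so no region has a control level beside it. With 1 list per factor there is no spread between samples of a factor, and no difference below was tested.

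Of the 5 genes, 4 had a BLJ region within 3000 bp and all 5 had a JKD region. These counts were near the background, since 89.9% of all protein-coding genes lay that near to a BLJ region and 87.6% to a JKD region. The same 4 and 5 genes were overlapped by a region, against 71% of all genes for BLJ and 65.3% for JKD. SCHIZORIZA was the gene with a JKD region and no BLJ region, a state shared by 3.36% of all genes. The genes differed more in how dense the regions were. The highest region of a gene ranged in percentile from 44.0 to 99.9 in the BLJ list and from 33.1 to 99.7 in the JKD list. The medians were 86.7 over 4 genes for BLJ and 84.4 over 5 genes for JKD, beside 76.4 and 75.1 over all genes with a region that near.

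**Figure D1:**
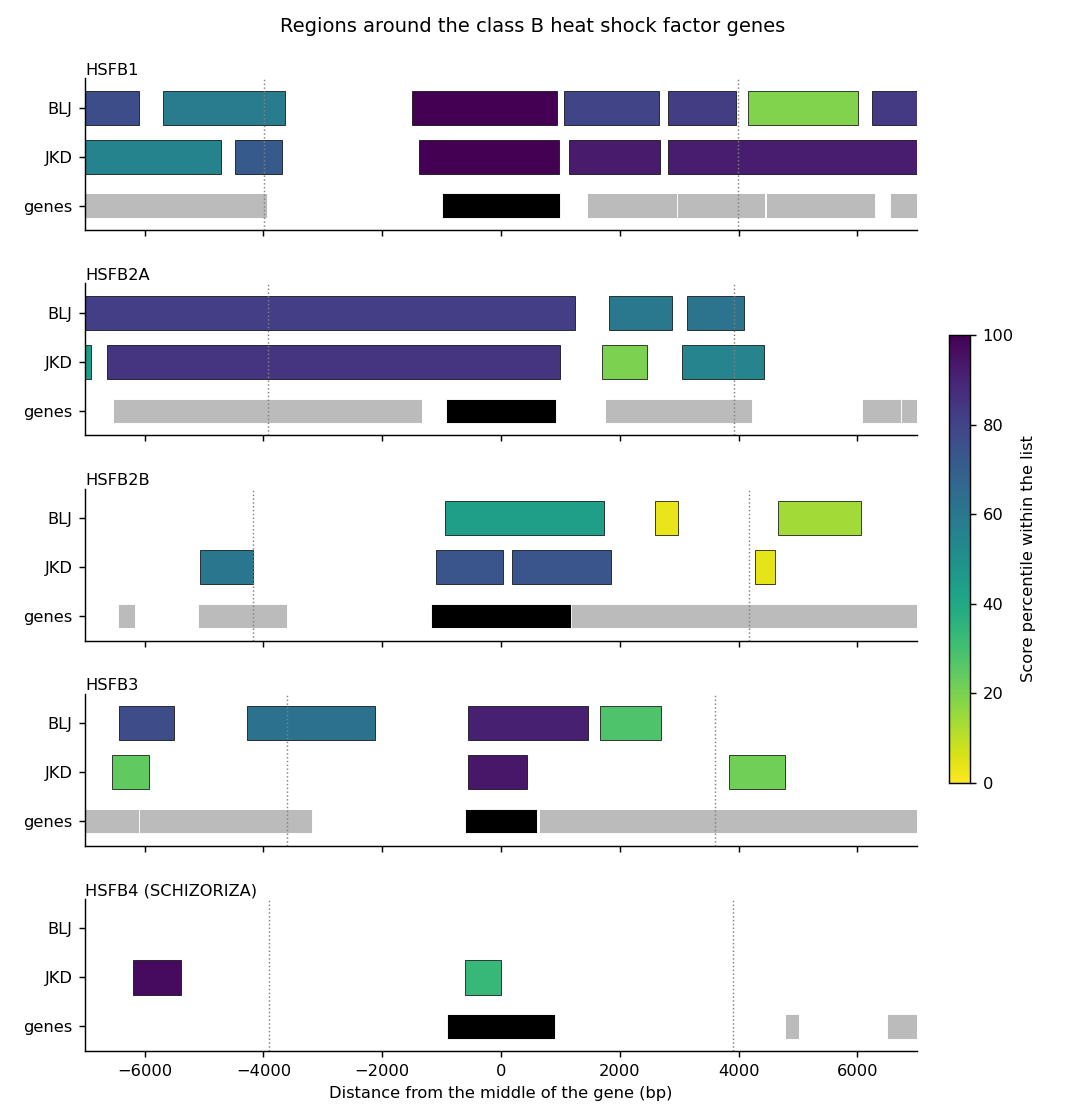
Regions of both lists (boxes, shaded by score percentile within their list) and protein-coding genes (black for the member, grey for neighbours) by distance from the middle of each member in bp, in the direction of rising coordinates; dotted lines stand 3000 bp beyond the gene ends. The darkest boxes over a member are those on HSFB1, at percentiles of 99.9 for BLJ and 99.7 for JKD, and the window of HSFB4 holds no BLJ region.

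HSFB1, the repressor that also acts in defence as TBF1, carried one of the densest regions of either list. The BLJ region lay on chromosome 4, chr4:17439657-17442111 on TAIR9, and had densities of 2.86 and 2.83, which were 1.79 and 2.06 times the medians of the list. Its score ranked 32 of 24229, and its IDR of 0.00793 was the 29th lowest. The JKD region at chr4:17439788-17442146 had densities of 1.42 and 2.94, or 1.30 and 1.98 times the medians of that list. It ranked 64 of 21985 by score and 68 by IDR, with a value of 0.00135. Both density values of each region stood near the top of their lists, at BLJ percentiles 99.5 and 99.6 and at JKD percentiles 98.7 and 99.6. Among all genes, 78 had a BLJ region within 3000 bp that scored as high, 221 had such a JKD region, and 29 reached the level of HSFB1 in both, HSFB1 and genes that share a region with a neighbour included. The highest regions of both factors stood at or above percentile 95 for 4.97% of all genes and for HSFB1 alone of these 5.

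The region on HSFB1 fitted the gene closely. It covered 98.0% of the gene for BLJ and 99.7% for JKD, overlapped no other protein-coding gene, and extended past the lower-coordinate end of the gene by 520 bp for BLJ and 389 bp for JKD, while it stopped 40 bp and 5 bp short of the other end. The gene table holds no strand, so these ends are not named start or end of transcription. Both boundaries differed by at most 131 bp between the lists, and the overlap made up 93.3% of the stretch covered by either region, beside a median of 54.7% over all 18725 overlapping pairs. Wide regions tended to score higher, with a Spearman correlation of 0.379 across BLJ regions and 0.456 across JKD regions, which share their libraries. Of the 2555 BLJ regions at least as wide as the 2455 bp on HSFB1, 7 scored as high, that region included, and of the 2190 JKD regions at least as wide as 2359 bp, 34 did.

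The regions beside HSFB1 were lower. On the higher-coordinate side, ACD2, a gene for an enzyme of chlorophyll breakdown, was overlapped 81 bp away by a BLJ region at percentile 79.8 and 150 bp away by a JKD region at 92.9. There the first-listed BLJ density stood at percentile 17.3 and the second-listed at 95.3, so the values of the BLJ list did not rank this neighbour alike. Farther on that side, a BLJ region 1821 bp from HSFB1 stood at percentile 82.2, and a JKD region 1822 bp from it, 4634 bp wide, stood at 92.3. The values of that BLJ region disagreed too, at percentiles of 18.1 (first-listed) and 96.0 (second-listed), with an IDR of 0.221. The outermost regions within 3000 bp lay 2648 bp (BLJ) and 2701 bp (JKD) from HSFB1, over AT4G36980, with scores at the 58.4 and 72.1 percentiles. These were also the farthest regions counted for any of the 5 genes. The nearest ones left out by the limit were a JKD region 3002 bp from HSFB2B at percentile 60.8 and a JKD region 3105 bp from it at 4.10.

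**Figure D2:**
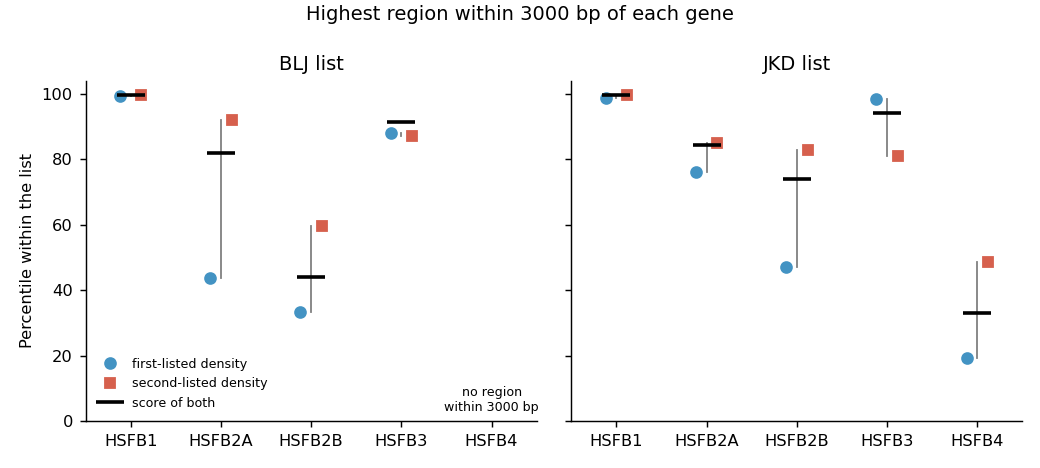
Percentile within the list of the highest region within 3000 bp of each gene, for the first-listed density (circles), the second-listed density (squares) and the score of both (bars), in the BLJ list (left) and the JKD list (right). Both values of HSFB1 lie at 98.7 or above in both lists, while those of HSFB2A in the BLJ list are 43.6 and 92.0.

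HSFB2A and HSFB2B, close relatives within the class, were covered by regions of unlike kind. HSFB2A, which is known for a role in the development of the gametophytes, lay inside a very wide region in both lists. The BLJ region chr5:24908196-24917970 was 9775 bp wide, and 6 of 24229 BLJ regions were wider. The JKD region chr5:24910086-24917726 was 7641 bp wide, with 57 of 21985 wider. Each covered all of HSFB2A and reached across ARF2, which encodes a repressing auxin response factor. The BLJ region also touched AT5G61997. HSFB2A made up 18.8% of the BLJ region and 24.0% of the JKD region. The density of such a region is therefore not that of HSFB2A alone. Densities were 1.57 and 1.79 for BLJ (percentiles 43.6 and 92.0, IDR 0.194) and 1.17 and 1.74 for JKD (percentiles 76.0 and 85.0, IDR 0.0391). The score percentiles were 82.0 for BLJ and 84.4 for JKD, and 39.9% and 34.0% of all genes near a region of the factor had one that scored as high. The BLJ values disagreed in rank, the second-listed being far higher in its distribution than the first-listed, and the JKD values stood closer together. On the other side of HSFB2A, 2 regions of each list lay over AT5G62030, at BLJ percentiles 60.0 and 61.8 and at JKD percentiles 19.5 and 54.9.

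HSFB2B is the partner of HSFB1 in holding back the heat response. Its highest region ranked low among genes near a region for BLJ. For JKD it ranked near the middle, where 51.5% of such genes had a region that scored as high. A BLJ region at chr4:7042588-7045264 had densities of 1.51 and 1.43 and an IDR of 0.239. Its score percentile was 44.0, and 86.0% of the genes near a BLJ region had one that scored as high. In the JKD list the same stretch was held by 2 regions. The first, chr4:7042432-7043563, lay wholly inside the gene and had densities of 1.09 and 1.71, and the second, chr4:7043717-7045384, ran on into AT4G11670 and had 1.26 and 1.47. Their score percentiles were alike at 74.1 and 74.0, but the first region stood higher in the second-listed value (percentile 83.0, against 46.4 for the second region) and lower in the first-listed value (47.1, against 91.6). HSFB2B and AT4G11670 overlap in the gene table, so the end that they share cannot be assigned to either. The BLJ region overlapped both JKD regions, and 57.8% of it lay in the second. A further BLJ region 1411 bp away, at percentile 3.45, was among the least dense of its list.

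HSFB3, a member whose role is less studied, had the second highest score of the class in both lists. By the second-listed density alone this order did not hold, since HSFB2A reached 92.0 in the BLJ list against 87.2 for HSFB3, and HSFB2A and HSFB2B reached 85.0 and 83.0 in the JKD list against 81.2. By IDR, HSFB3 was also below HSFB2A in the BLJ list, at 75.9 against 90.4 for a region over AT5G62030. The BLJ region chr2:17381689-17383708 had densities of 1.92 and 1.68, at percentiles of 88.1 and 87.2, with an IDR of 0.0970. The JKD region chr2:17381687-17382687 had densities of 1.41 and 1.69, at percentiles of 98.6 and 81.2, with an IDR of 0.00907. The score percentiles were 91.3 for BLJ and 94.1 for JKD. Both regions began within 2 bp of each other, 42 bp (BLJ) and 40 bp (JKD) inside the lower-coordinate end of the gene. The JKD region ended within the gene and covered 83.1% of it, whereas the BLJ region went on across the 39 bp to ABCA1, which encodes a transporter, and 57.6% of it lay in HSFB3. The JKD region was thus confined to HSFB3 among protein-coding genes and the BLJ region was not. Of the 5 members, HSFB1 and HSFB3 had a highest region at or above percentile 90, for BLJ and for JKD alike, and such a region was near 21.2% of all genes for BLJ and 20% for JKD.

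**Figure D3:**
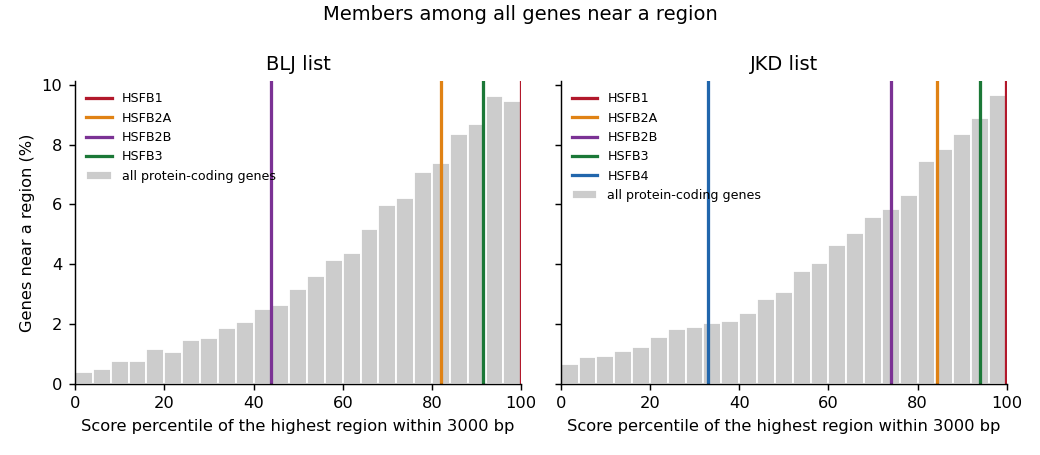
Share of all genes near a region (bars, in %) by the score percentile of their highest region within 3000 bp, with the members as vertical lines, in the BLJ list (left) and the JKD list (right). HSFB1 stands at the right edge of both panels at 99.9 and 99.7, and HSFB4 stands at 33.1 in the JKD list and is missing from the BLJ list.

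SCHIZORIZA, the root patterning gene of the class, had the lowest percentile of the 5 genes for its highest JKD region, and no BLJ region nearby. A JKD region lay wholly inside it at chr1:17225031-17225626, 596 bp wide, and covered 32.7% of the gene. Its densities were 1.03 and 1.48, or 0.937 and 0.996 times the medians of the JKD list, at percentiles of 19.3 and 48.6. The score percentile was 33.1 and the IDR 0.200, so that 89.4% of the genes near a JKD region had one that scored as high. No BLJ region came within 21331 bp of the gene, a distance that 1.54% of all genes reached. The stretch without a BLJ region, chr1:17200608-17247871, spanned 47.3 kb and 5 protein-coding genes in whole or in part. Of 24224 stretches between neighbouring BLJ regions, 133 were as long, and the median was 1492 bp.

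Denser JKD regions lay farther from SCHIZORIZA on its lower-coordinate side, beyond the limit of 3000 bp. The nearest, chr1:17219441-17220240, lay 4480 bp from the lower-coordinate end of the gene, overlapped no annotated gene, and had SCHIZORIZA as its nearest protein-coding gene. Its densities were 1.17 and 2.26, at percentiles of 76.7 and 98.2, with a score percentile of 96.9 and an IDR of 0.0334. A second one, chr1:17216034-17216989, lay 7731 bp away over a pseudogene, with densities of 1.63 and 1.84, percentiles of 99.8 and 90.8, a score percentile of 98.5 and an IDR of 0.00330. SCHIZORIZA was also the nearest protein-coding gene to it. On the other side the regions were less dense. The nearest there was a JKD region 8753 bp away, at percentile 45.0 with an IDR of 0.307 and 340 bp from WOX4, and the next, 23001 bp away, stood at percentile 28.6. Both regions on the lower-coordinate side fall in the stretch without BLJ regions. They were singled out after their values were seen, and a place near a gene does not link a region to it.

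The surroundings of the genes differed as well. In the gene and 25 kb on each side, BLJ regions covered 50.7% at HSFB1, 54.2% at HSFB2A, 23.1% at HSFB2B, 49.1% at HSFB3 and 6.03% at SCHIZORIZA, against a median of 32.2% over all genes. JKD regions covered 46.0%, 49.9%, 13.0%, 34.3% and 11.6% in the same order, against 27.0%. Cover at SCHIZORIZA was lower than at most genes, with 4.67% of all genes having less for BLJ and 13.7% for JKD. SCHIZORIZA also lay far from its neighbours. Its nearest protein-coding genes were 23879 bp away on one side and 3870 bp on the other, while the other 4 members had one within 461 bp. Within 10000 bp it had 3 other protein-coding genes, as many as HSFB3, beside 4 for HSFB2B, 5 for HSFB2A and 7 for HSFB1. The part of the distance to other genes in the lack of BLJ regions was not tested.

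**Figure D4:**
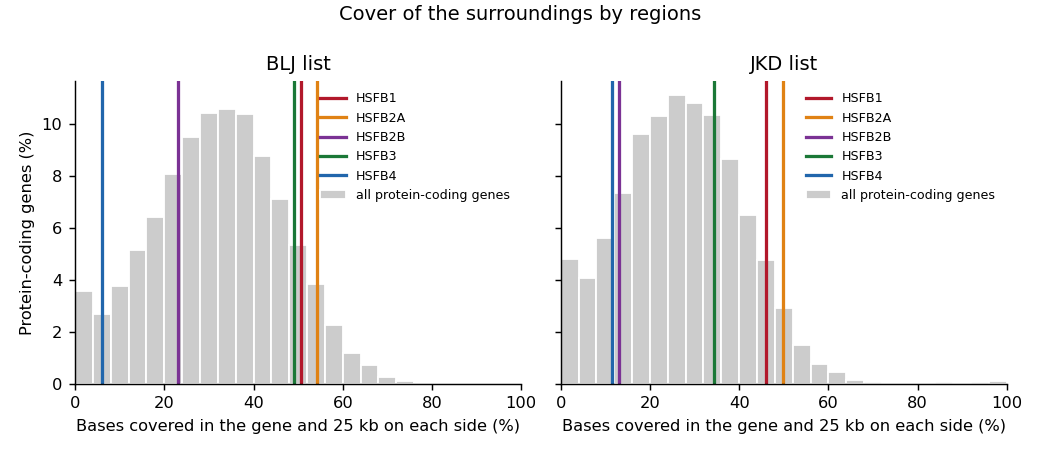
Share of all protein-coding genes (bars, in %) by the bases covered by regions in the gene and 25 kb on each side, with the members as vertical lines, in the BLJ list (left) and the JKD list (right). HSFB4 stands far left in the BLJ panel at 6.03%, while HSFB1 and HSFB2A stand right of the bulk in both panels.

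Most regions around the members overlapped a region of the other list, as did most regions of the whole lists. Of the 12 BLJ regions, 9 overlapped 1 of the 11 JKD regions or more by at least 1 bp, and 10 of the 11 JKD regions overlapped a BLJ region, in 10 pairs. Over the whole lists 68.7% of BLJ regions and 77.1% of JKD regions did so. The closest pair of the 10 lay beside HSFB1 over ACD2, with 94.5% of the union covered by both regions. Of the pairs that overlapped a member, the one on HSFB1 was the closest at 93.3%, followed by the pair on HSFB2A at 78.2%, those on HSFB2B at 55.3% and 34.5%, and the pair on HSFB3 at 49.4%. The JKD region without a partner was that of SCHIZORIZA. The BLJ regions without one were the least dense region beside HSFB2B and those on either side of HSFB3, over NTRC, which encodes a chloroplast thioredoxin reductase, and over ABCA1. Where the IDR had to be 0.1 or lower, HSFB1, HSFB2A and HSFB3 kept a BLJ region within 3000 bp and these genes and HSFB2B kept a JKD region, beside 46.4% and 56.2% of all genes.

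The 16 heat shock factors of classes A and C all had regions of both factors within 3000 bp, which 84.2% of all genes had. SCHIZORIZA was therefore the one gene of the 21 in the family without a BLJ region. Overlap was not particular to class B. Of the 16, all were overlapped by a BLJ region and 15 by a JKD region, beside 71% and 65.3% of all genes. The median percentile of their highest regions was 82.0 for BLJ and 92.3 for JKD, beside 86.7 and 84.4 for the class B genes with a region. By the score, HSFB1 stood above all 16 in both lists. By the first-listed density alone, 1 gene stood above it in each list, HSFA1D for BLJ (99.6, against 99.5 for HSFB1) and HSFA6B for JKD (99.8, against 98.7). The HSFA6B value came from another region than its highest-scoring one, whose first-listed percentile was 97.2. Nearest to HSFB1 by score in the BLJ list was HSFA1D, a master activator of the heat response, at 99.0. HSFA3, an activator that acts downstream of DREB2A, followed at 96.0, and HSFA1B, a relative of HSFA1D, at 93.7. Of these 3 BLJ regions, that of HSFA3 overlapped the gene, that of HSFA1D lay 141 bp outside it over MKK10, and that of HSFA1B lay 1481 bp away over SYP21 and BPA1. In the JKD list HSFC1, the single member of class C, reached 98.6, HSFA6B, known from abscisic acid and heat responses, 97.5 and HSFA3 94.5. The JKD regions of HSFC1 and HSFA3 overlapped the genes, and that of HSFA6B lay 683 bp away over no protein-coding gene.

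Set against the members by both percentiles, the most like gene of classes A and C was HSFA1D for HSFB1 (99.0 for BLJ and 93.8 for JKD), HSFA9 for HSFB2A (82.6 and 91.0), HSFA5 for HSFB2B (66.2 and 67.8) and HSFA7A for HSFB3 (93.0 and 94.1). The distances were 5.98, 6.65, 23.1 and 1.66 percentile points over 2 lists, so likeness rests on a pair of values. Some of these regions lay off the genes, at 2455 bp (BLJ) and 1444 bp (JKD) for HSFA9 and at 2157 bp (JKD) for HSFA5. Low percentiles were not particular to SCHIZORIZA in the JKD list. HSFA8 was lower, with percentiles of 36.8 for BLJ and 24.9 for JKD in regions 1482 bp (BLJ) and 1573 bp (JKD) from the gene.

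**Figure D5:**
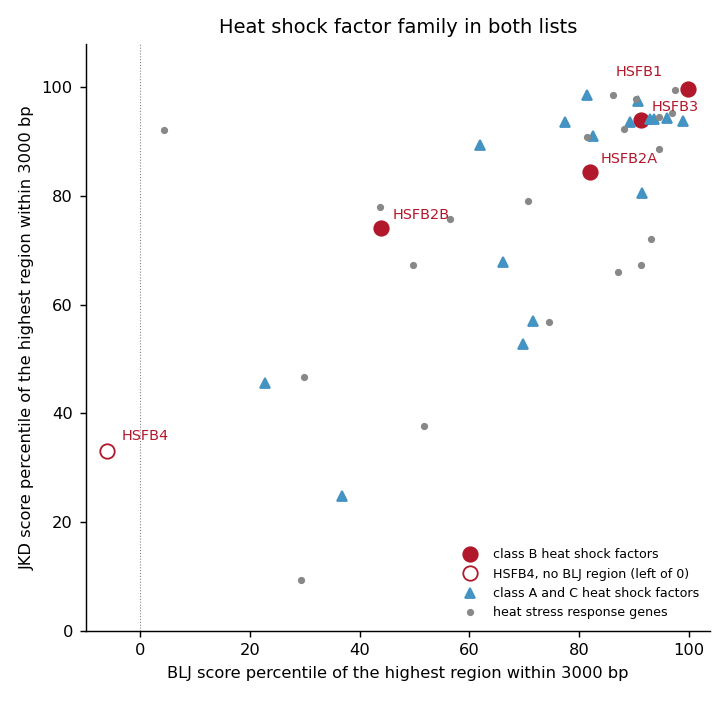
Score percentile of the highest region within 3000 bp in the BLJ list (horizontal) and the JKD list (vertical) for class B heat shock factors, class A and C factors and heat stress response genes with a region of both. HSFB1 is at the upper right corner, HSFB4 is drawn left of 0 because it has no BLJ region, and HSFB2B lies left of most of the family.

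Genes that respond to heat stress, many of them known targets of the family, had regions in numbers near the background. Of 23 such genes, 22 had a BLJ region within 3000 bp and 21 a JKD region, beside 89.9% and 87.6% of all genes. Their median percentile was 78.0 in each list, beside 76.4 and 75.1 over all genes. The highest BLJ regions were near AT1G59860 (97.6), HSP18.2 (97.1), which encodes a small heat shock protein, and MBF1C (94.6), a coactivator of the heat response. The highest JKD regions were near AT1G59860 (99.5), DREB2A (98.6), a factor of drought and heat responses, and HSC70-1 (97.9), a constitutive chaperone. The region near AT1G59860 lay over PEN3 in both lists, 1918 bp (BLJ) and 1245 bp (JKD) from the gene. The BLJ region near HSP18.2 lay 492 bp away over EXO70H7, and the other regions named here overlapped their genes. By the score, HSFB1 stood above every gene of the list that had a region. By the second-listed JKD density alone, AT1G59860 stood above it, at percentile 99.7 against 99.6 for HSFB1.

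SCHIZORIZA acts in the ground tissue beside SHORT-ROOT (SHR) and SCARECROW (SCR), GRAS factors that work with BLJ and JKD. SHR had percentiles of 41.5 for BLJ and 88.8 for JKD in regions that overlapped it. SCR had 97.0 and 97.8, in regions that lay 1290 bp and 1327 bp from it over its neighbours AT3G54200 and AT3G54210. These were its highest-scoring regions within 3000 bp, and other regions of both lists overlapped SCR itself. SCHIZORIZA, with 33.1 for JKD and no BLJ region, stood below both genes in the JKD list.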

How the data were processed

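Each factor has 1 table of regions, which the authors made from both replicates. Per the file headers a row holds position, length, summit, the density signal of the replicates and an IDR. The submitters' processing notes name CASAVA, Bowtie and TAIR9. Peak caller, normalization and any use of the control: not given in the sources used here. The deposited IDR, a rate on a scale from 0 to 1 and not a p-value, served to rank and limit regions of the same list. Deposited density signal was likewise used within lists. Per the deposited sample sheets, replicate 1 of each factor and the control shared a flow cell and replicate 2 of each factor shared another, so flow cell and replicate cannot be told apart.

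Gene names and neighbours came from an NCBI table of assembly TAIR10.1, without strand or sequence. Across gene edges, cover rose most steeply within 200 bp of the annotated edge in all 20 parts tested (2 lists, 5 chromosomes, both edges), with a median offset of 0 bp. A region was near a gene if any base lay within 3000 bp, and overlap means at least 1 bp. The distance code was tested on simulated regions. Planned motif searches and protein comparisons were not run, as no sequence was used here. Members and gene lists were chosen with earlier results of these data known. Named are all members, SHR, SCR, for each factor the 3 other heat shock factors and the 3 heat response genes of highest score, the most like other factor, and genes under or next to a member's regions. Outside this rule, HSFA8, the JKD regions far from SCHIZORIZA, WOX4 and the genes under regions of non-members (such as MKK10, PEN3, AT3G54200 and AT3G54210) were added after values were seen, the last to give positions only. Python 3.11.15, pandas 2.3.3, numpy 2.4.6 and matplotlib 3.10.9 were used.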

Additional observations from a re-analysis of the deposited data

How the results depend on the processing

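The counts of members near a region stayed within 1.5 times of 4 (BLJ) and 5 (JKD) for limits of 0, 1000 and 5000 bp, for midpoints, for the denser 50% of each list, for the nearest gene alone and at an IDR of 0.1 or lower. Of all genes, 80.8% (BLJ) and 76.8% (JKD) had a region within 1000 bp, and 93.6% and 92.2% within 5000 bp. For midpoints these shares were 88.1% and 85.3%, for the denser 50% 73.4% and 69.2%, and for the nearest gene alone 62.8% and 57.7%. At an IDR of 0.1 or lower the shares were 46.4% and 56.2%. Except for BLJ at that IDR limit, most genes thus had a region under each of these rules. The steady counts therefore say little about the members. At an IDR of 0.05 or lower they were 1 (HSFB1) and 3 (HSFB1, HSFB2A and HSFB3), where 4869 and 9032 of 27444 genes kept a region. For classes A and C the counts of 16 each fell to 2 and 10 at 0.05, and to 10 for BLJ at 0.1. For heat response genes the counts of 22 and 21 were 4 and 10 at 0.05, and 11 for BLJ at 0.1. Of 10 overlapping pairs at the members, 6 overlapped by 50% of both regions and 2 had an IDR of 0.1 or lower in both lists. The same shares over all 18725 overlapping pairs were not computed, so neither count can be set against the background. Ranked by the first-listed density alone, percentiles were 99.5 for HSFB1 and 88.1 for HSFB3 in the BLJ list, and 98.7 for HSFB1 and 76.0 for HSFB2A in the JKD list. By the second-listed density alone they were 99.6 for HSFB1 and 87.2 for HSFB3 in the BLJ list, and 81.2 for HSFB3 in the JKD list. HSFB3 in the BLJ list had 90.7 by the mean of the linear densities and 75.9 by IDR. The other percentiles of members moved by no more than 1 SD of the percentiles of both values of the region. That limit is wide where both values disagree, so it does not show that these percentiles were stable. In the JKD list HSFB2B went from 74.1 to 91.6 by the first-listed density, in another of its regions. SCHIZORIZA went there from 33.1 to 19.3 by the first-listed and 48.6 by the second-listed density. The cause of these moves was not tested. HSFB1 stayed highest of the members in both lists under each of the 4 measures. By the first-listed JKD density its lead was small, at 98.7 against 98.6 for HSFB3. No paired analysis was possible because each list holds regions called on both replicates together and the order of the density values is not given. For the same reason counts without 1 replicate could not be had, and the alternative with a promoter window was not run. Without read depth or control values, no interval or background level could be given for any region.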
